A study of Mus musculus with 6 samples.

Results

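The genes described here are 6 transcription factors of the pancreatic islet, namely Irx1, Irx2, Hhex, Pax4, Foxa2 and Hnf4a, in mouse islets sampled around the clock. They were chosen by name, and every non-control array probe that the files pair with a RefSeq transcript of these genes was used. That gave 8 probes for the 6 genes, against 24147 genes tested in all, and 5 of the 6 passed the filter on dim probes. RNA was measured in islets of male C57BL6 mice aged 8 weeks, fed rodent chow and housed with 12 h light followed by 12 h dark. Islets were isolated with collagenase at zeitgeber time (ZT) 0, 4, 8, 12, 16 and 20, where lights came on at ZT0 and went off at ZT12. Each time point was a pool of RNA from 3 to 5 animals, read on 1 single-colour Agilent array, so the 6 groups were ZT0, ZT4, ZT8, ZT12, ZT16 and ZT20 with 1 array each. No cell type was sorted, and no time point had a replicate.

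Islets hold several endocrine cell types that share most of their regulators and differ in a few. Irx1 and Irx2 encode Iroquois homeodomain proteins that mark the glucagon-producing alpha cell in the islet. Pax4 encodes a paired homeodomain repressor that steers endocrine precursors towards the beta and delta fates and is low in mature islets. Hhex encodes a homeodomain protein needed to keep the somatostatin-producing delta cell, and it is also used by liver, endothelium and B cells. Foxa2, a forkhead factor that opens chromatin, and Hnf4a, a nuclear receptor, act throughout gut-derived organs, among them islets, liver and intestine. Within the pancreas, Irx1, Irx2 and Pax4 were therefore treated as endocrine-restricted, and Hhex, Foxa2 and Hnf4a as shared with other tissues.

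Levels are log2 processed signals from which the array's own 75th percentile (also as log2) was subtracted, so 0 is the level of a fairly bright probe and 1 unit is a doubling. Levels of different probes were not set against each other. Between 66.1% (ZT4) and 84.4% (ZT0) of the 43020 spots were well above background, 0 spots were saturated, and the 75th percentile ran from 506 to 2090 intensity units. Repeated spots of the same probe had a median coefficient of variation of 4.06% to 6.83% within an array, and this does not include variation between pools. The ZT8, ZT12, ZT16 and ZT20 arrays were read in the same scan, while ZT4 and ZT0 were read in a scan each. The number of arrays limits the precision of everything that follows.

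Irx1, Irx2, Foxa2 and Hnf4a each had their lowest level at ZT12, whereas Hhex did not and Pax4 was measurable at ZT8 only. Of the 5 factors well above background on all arrays, 4 were lowest at ZT12, and the same 4 stood at least 2-fold below the median of the other arrays there. Among all 18950 genes above background on every array, 21.2% were lowest at ZT12 and 18.1% were at least 2-fold below the median of the others. The distance between highest and lowest array was at least 4-fold for 4 of the 5 factors, against 47.1% of all genes. Irx1, Irx2 and Foxa2 had ZT4 and ZT12 as their 2 lowest arrays, as 16% of genes did, and all 3 were at least 2-fold below the median of the other arrays at ZT4, as were 15.9% of genes. At ZT16 Irx1, Irx2 and Foxa2 were at least 2-fold above the median of the other arrays, against 10.1% of genes, and at ZT20 Irx1, Irx2 and Hnf4a were, against 10.4%. Foxa2 was counted by its brighter probe. Its other probe lay 1.92-fold below the median of the other arrays at ZT4 and 2.43-fold above it at ZT20. The median range over the 5 was 4.72 log2 units, against 1.92 for all genes.

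**Figure D1:**
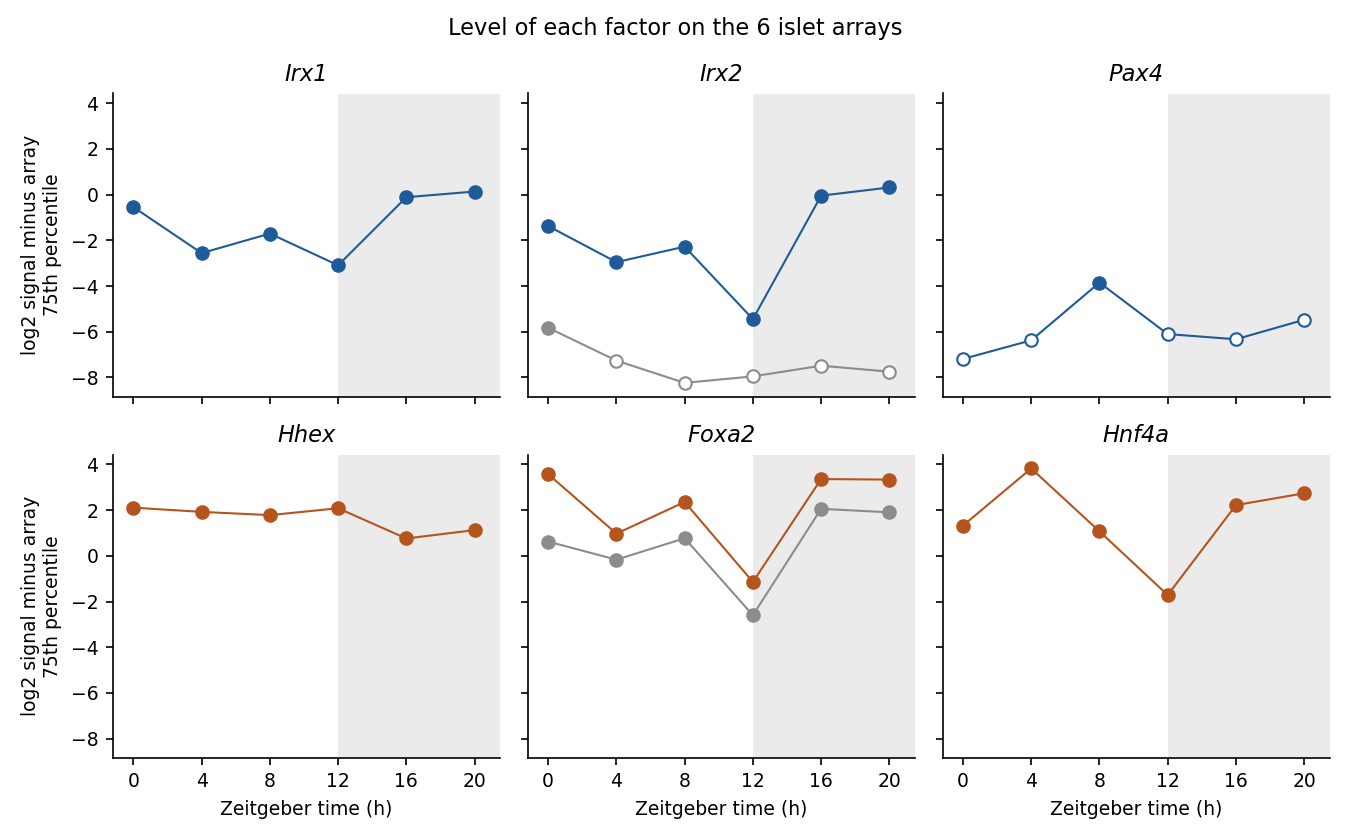
Level of each factor, as log2 signal minus the array's 75th percentile, against zeitgeber time, with the dark phase shaded. Filled points were well above background and open points were not; blue marks endocrine-restricted genes, orange shared genes and grey the other probe of Irx2 and of Foxa2. Irx2 ran to -5.45 at ZT12 and Hnf4a to 3.82 at ZT4, while Hhex stayed between 0.76 and 2.11.

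The alpha cell factor Irx2 had the widest range of the 6 with the 75th percentile scaling, but not with normexp background correction, where it was 4.13 log2 units against 5.09 for Hnf4a and 4.46 for Foxa2. Its level was -1.37 (ZT0), -2.95 (ZT4), -2.28 (ZT8), -5.45 (ZT12), -0.04 (ZT16) and 0.31 (ZT20). The ZT12 array lay far below all the others, and the ZT16 and ZT20 arrays lay above them. The range of 5.76 log2 units, or 54.2-fold, exceeded that of 98.6% of genes above background on all arrays, and the ZT12 level was 16.8-fold below the median of the other arrays. Without the ZT12 array the range was 3.27 log2 units. The ZT12 spot was dim, with a processed signal of 38.0 and an error of 20.3% as estimated by the scanner software, against 10.01% to 11.2% on the other arrays. The other Irx2 probe was well above background only at ZT0, with a signal of 34.8, so it gave no second reading of the pattern.

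Irx1 was -0.54 (ZT0), -2.56 (ZT4), -1.70 (ZT8), -3.09 (ZT12), -0.11 (ZT16) and 0.14 (ZT20). The order of the arrays was the same as for Irx2, from ZT12 at the bottom through ZT4, ZT8, ZT0 and ZT16 to ZT20. Its range was narrower, at 3.23 log2 units or 9.37-fold, above that of 82.6% of genes. Irx1 stood 5.85-fold below the median of the other arrays at ZT12 and 4.04-fold below at ZT4. Each step between neighbours in this order was larger than the combined error that the scanner software gave for the spots. That error covers the spot alone and says nothing of other pools of mice.

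Irx1 and Irx2 lie on chromosome 13 with 0 protein-coding genes between them, and the next protein-coding gene after Irx2 is Irx4, another member of the family. Centred on their own means, they differed by a root mean square of 0.84 log2 units over the 6 arrays, and of the other 13863 named genes 1668 were closer to Irx1 than Irx2 was and 253 were closer to Irx2 than Irx1 was. Both were closer to Foxa2 (0.72 for Irx1 and 0.67 for Irx2) than to each other. The 2 other Iroquois genes tested did not have their lowest level at ZT12. Irx3 ran from -2.81 at ZT16 to -0.24 at ZT4, and Irx6 from -4.73 at ZT4 to -3.23 at ZT20. Irx5 was well above background on 1 of 6 arrays and was not tested.

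The alpha cell list, written with earlier results of these data known, had a course over the arrays like that of Irx1 and Irx2. Its 6 genes had median deviations from their own means of 0.31 (ZT0), -0.95 (ZT4), 0.06 (ZT8), -2.37 (ZT12), 1.21 (ZT16) and 1.5 (ZT20), while the median of all genes tested stayed between -0.03 and 0.06. Gcg, which encodes glucagon, was lowest at ZT12 (4.20) and highest at ZT0 (7.83). Gc, a vitamin D binding protein that alpha cells express, was lowest at ZT12 (0.08) and highest at ZT20 (5.47), the same lowest and highest arrays as for Irx1 and Irx2.

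Pax4 was well above background on 1 of 6 arrays. Its level was -7.19 (ZT0), -6.38 (ZT4), -3.85 (ZT8), -6.10 (ZT12), -6.33 (ZT16) and -5.48 (ZT20), and the ZT8 value was the only measured level. The ZT8 value was 3.09-fold above the ZT20 reading and 10.1-fold above the ZT0 reading. Against the ZT4, ZT12 and ZT16 readings it was 5.76-fold, 4.77-fold and 5.59-fold higher. These are ratios to readings that were not well above background, with spot errors of 24.1% (ZT20) to 58.3% (ZT4). They are therefore not lower bounds on a difference. With normexp background correction ZT4 was the highest array (-3.08, against -3.27 at ZT8), so the direction between ZT8 and ZT4 depends on the correction. With a processed signal of 145 at ZT8 against 6.09 to 31.0 elsewhere, Pax4 was too dim for the 24 h test.

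Hhex varied least. It stood at 2.11 (ZT0), 1.92 (ZT4), 1.78 (ZT8), 2.08 (ZT12), 0.76 (ZT16) and 1.13 (ZT20). The first 4 of these lay within 0.33 log2 units, and no step between neighbours among them exceeded the combined spot error of 0.20, whereas ZT16 and ZT20 lay below. The range of 1.35 log2 units, or 2.55-fold, was larger than that of only 25.9% of genes. At ZT16 the level was 2.24-fold below the median of the other arrays, and 12.3% of genes were at least 2-fold below it there.

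The pattern of Hhex differed from that of the delta cell hormone gene. Sst, which encodes somatostatin, was 6.75 (ZT0), 3.58 (ZT4), 5.31 (ZT8), 1.72 (ZT12), 6.77 (ZT16) and 6.6 (ZT20). It was thus lowest on the array where Hhex had its second-highest level. Ppy, which encodes pancreatic polypeptide, was lowest at ZT12 (1.18) and highest at ZT16 (6.85). Lepr, a leptin receptor gene on the same list, instead had the lowest and highest arrays of Hhex, with -4.75 at ZT16 and -0.58 at ZT0, although it was also low at ZT4 (-2.60) and ZT12 (-2.95). Of the 5 delta and PP cell genes 3 were lowest at ZT12, and the list had medians of -2.90 at ZT12 and 1.65 at ZT16. Hhex deviated from its own mean by 0.45 and -0.87 on those arrays. Hhex, labelled a delta cell factor, and Sst thus did not share a pattern in these whole-islet pools.

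Tissues other than the delta cell that use Hhex also differed between arrays. Lymphocyte markers, all 11 well above background on all arrays, had medians of 0.27 (ZT0), 2.56 (ZT4), 0.79 (ZT8), 2.23 (ZT12), -3.10 (ZT16) and -2.69 (ZT20). Their summed signal, in multiples of the array's 75th percentile, was 63.7 (ZT0), 358 (ZT4), 89.0 (ZT8), 251 (ZT12), 29.6 (ZT16) and 15.6 (ZT20). It was lowest on the ZT16 and ZT20 arrays, where Hhex was lowest as well. Endothelial markers stayed between -0.70 at ZT4 and 0.41 at ZT8. Hepatocyte markers were highest at ZT20 (6.04), where Hhex had its second-lowest level, and lay between -2.07 and -0.86 on the other arrays. The part of these cells in the Hhex signal was not tested.

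Foxa2 had its low levels where Irx1 and Irx2 did. The brighter of its 2 probes read 3.57 (ZT0), 0.97 (ZT4), 2.36 (ZT8), -1.14 (ZT12), 3.36 (ZT16) and 3.34 (ZT20). ZT12 lay 22.3-fold and ZT4 5.15-fold below the median of the other arrays, and ZT16 and ZT20 were closer to each other than the spot error. The range was 4.72 log2 units, or 26.3-fold, and 2.60 without the ZT12 array. The dimmer probe read 0.62, -0.17, 0.77, -2.60, 2.06 and 1.90 from ZT0 to ZT20. It had the same lowest arrays and a range of 4.66, but it placed ZT0 below ZT8, ZT16 and ZT20. With the dimmer probe ZT12 lay 10.3-fold and ZT4 1.92-fold below the median of the other arrays. The probes differed by 1.14 log2 units at the least and by 2.95 at the most. The height of Foxa2 at ZT0 and its depth at ZT4 therefore depend on the probe.

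The brighter Foxa2 probe lay close to the beta and pan-endocrine factors. Set against the median of the 7 such factors above background on all arrays (Pdx1, Nkx6-1, Nkx2-2, Isl1, Insm1, Rfx6 and Neurog3), its centred values differed by a root mean square of 0.33 log2 units. With the dimmer Foxa2 probe it was 0.65, so the order of Foxa2 and Irx1 depends on the probe. The same difference was 0.61 for Irx1, 0.77 for Irx2, 1.81 for Hnf4a and 1.96 for Hhex. At ZT12 the 7 factors lay between -3.25 and -1.66, with Foxa2 at -3.22, Irx2 at -3.48, Irx1 at -1.78, Hnf4a at -3.29 and Hhex at 0.45. At ZT16 and ZT20 Irx2 lay above all 7, by 0.59 and 1.07 over their median.

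**Figure D2:**
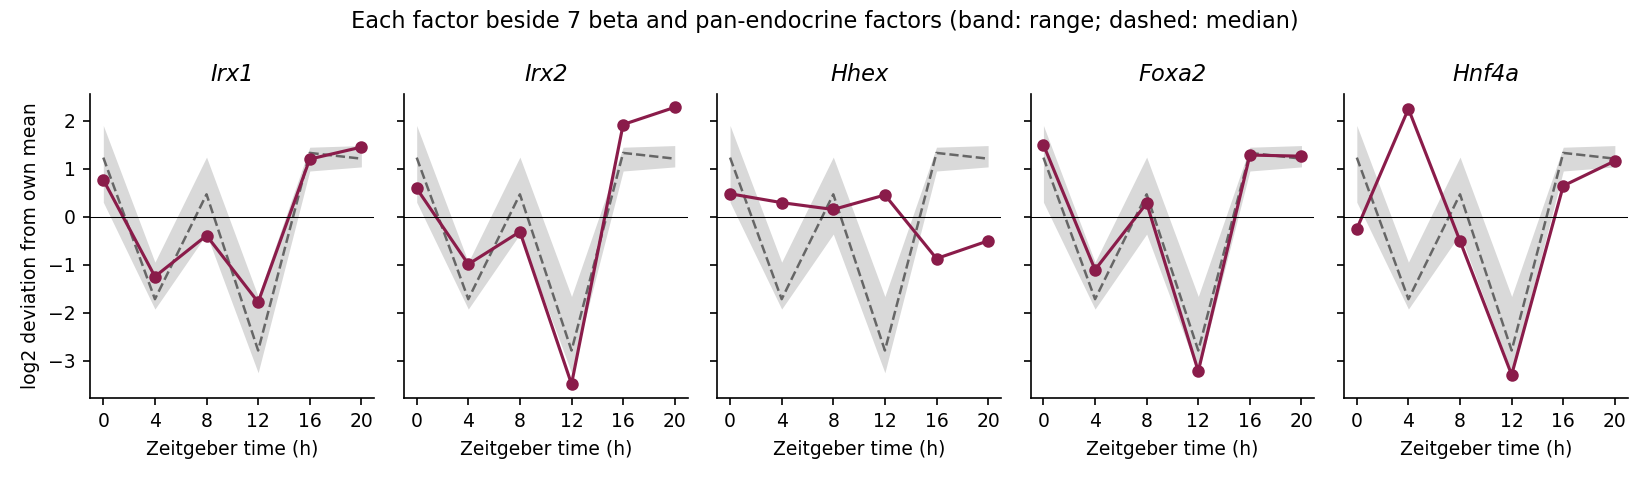
Log2 deviation of each factor from its own mean over the 6 arrays (line and points) against zeitgeber time, beside the range (band) and median (dashed) of 7 beta and pan-endocrine transcription factors. Foxa2, shown by its brighter probe, stays near the median. Hnf4a lies above the band at ZT4, inside it at ZT20 and below it at ZT0, ZT8, ZT12 and ZT16. Hhex lies above the band at ZT4 and ZT12 and below it at ZT16 and ZT20.

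RefSeq held promoter windows for 4 of the 6 genes (build GRCm38.p6), 7 windows in all, of which the 250 bases before the start site were read. The Foxa2 window furthest upstream is shown because it alone of the 3 Foxa2 windows held a match to a motif searched. Capitals mark a match to the core sequence of ONECUT factors (ATTGAT on either strand), which 6.72% of 32851 promoter windows held. It lies 213 to 208 bases before the start.
Foxa2, chr2:148046970-148047219, minus strand: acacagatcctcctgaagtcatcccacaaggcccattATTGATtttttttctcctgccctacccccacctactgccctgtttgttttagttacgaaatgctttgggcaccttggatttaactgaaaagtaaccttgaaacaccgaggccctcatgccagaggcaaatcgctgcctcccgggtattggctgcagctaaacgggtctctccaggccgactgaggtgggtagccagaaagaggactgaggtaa

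Hnf4a is transcribed from an upstream promoter in islets and from a downstream promoter in adult liver, and intestine uses both. The windows of both start sites, 40.3 kb apart, are shown because the start site used differs between islets and liver. Capitals mark matches to GTTA and TTAA with 4 bases between them, on either strand, and, in the upstream window only, to the ONECUT core. The spacing of this pair was chosen on seeing these windows, and 0.667% of all promoter windows held it. The pair lies 101 to 90 bases before the upstream start and 80 to 69 bases before the downstream start.
Hnf4a upstream window, chr2:163506607-163506856, plus strand: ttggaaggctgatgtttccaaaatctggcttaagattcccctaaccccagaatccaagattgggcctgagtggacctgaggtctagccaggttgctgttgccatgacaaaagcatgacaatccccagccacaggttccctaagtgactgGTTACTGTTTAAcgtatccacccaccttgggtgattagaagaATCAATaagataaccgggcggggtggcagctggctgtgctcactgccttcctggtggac
Hnf4a downstream window, chr2:163546905-163547154, plus strand: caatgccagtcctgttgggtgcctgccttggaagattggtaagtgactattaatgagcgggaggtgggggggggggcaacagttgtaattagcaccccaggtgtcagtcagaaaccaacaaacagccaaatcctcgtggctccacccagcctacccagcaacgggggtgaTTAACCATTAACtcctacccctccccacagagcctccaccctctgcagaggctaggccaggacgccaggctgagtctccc

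The other windows, of Irx2, Hhex and the remaining Foxa2 starts, held 0 matches to these motifs. A FOXA core (TGTTTAC, in 3.17% of all windows), an HNF4 site (CAAAGTCCA, 0.384%) and an E-box (CACGTG, 6.02%) were also searched on both strands and had 0 matches in the 7 windows. A match is a run of letters and does not show binding. The place of the Hnf4a probe within the transcripts was not analysed here, so its signal is not assigned to either promoter.

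Hnf4a was lowest at ZT12 like Irx1, Irx2 and Foxa2 but highest at ZT4, where those genes were low. Its level was 1.32 (ZT0), 3.82 (ZT4), 1.07 (ZT8), -1.71 (ZT12), 2.22 (ZT16) and 2.74 (ZT20). ZT4 stood 5.66-fold above the median of the other arrays, as 23.9% of genes did by at least 2-fold, and ZT12 stood 15.3-fold below it. The range was 5.54 log2 units or 46.5-fold, above that of 98.2% of genes. It was 4.45 without ZT4 and 2.75 without ZT12. At ZT4 Hnf4a deviated by 2.25 from its mean, while the 7 endocrine factors lay between -1.92 and -0.95. Quantile normalization put ZT4 highest as well, 1.95 log2 units above the median of the other arrays, against 2.50 with the 75th percentile.

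Most intestinal epithelium markers were high on the same array, with 6 of 9 tested highest there. Their median deviation was -1.53 (ZT0), 5.07 (ZT4), -1.33 (ZT8), -0.997 (ZT12), -0.39 (ZT16) and 0.09 (ZT20). Of the 11 with a probe, between 8 and 10 were well above background on every array, and their summed signal was 357 at ZT4 against 3.28 to 51.7 on the other arrays. Fabp2, an enterocyte fatty acid binding protein, was 4.55 at ZT4 and between -4.51 and -0.41 elsewhere, and Lgals4, a gut galectin, was 6.90 against -1.11 to 0.60. Other genes of the list differed: Vil1 was highest at ZT16 (3.83, with 3.24 at ZT4), Fabp1 at ZT20 (5.25, with -0.34 at ZT4), and Apoa4 was not well above background at ZT4. Cdx2, which defines intestinal epithelium, was well above background at ZT4 and on 0 of the other arrays. Foxa2, which intestine also expresses, was 0.97 on that array with its brighter probe, 5.15-fold below the median of the other arrays. With its dimmer probe it was -0.17 there, 1.92-fold below. The share of the Hnf4a signal at ZT4 that came from intestine was not tested.

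Hepatocyte markers were high at ZT20, where Hnf4a had its second-highest level. Their median deviation was 6.04 at ZT20 and between -2.07 and -0.86 on the other arrays. All 12 were well above background at ZT20, and their summed signal was 539 there against 4.62 to 77.0 elsewhere. Alb, which encodes albumin, was 6.40 at ZT20 and between -5.34 and -3.14 elsewhere. Hnf4a was 0.52 log2 units higher at ZT20 than at ZT16, whereas Foxa2 differed by 0.02 between these arrays. Without the ZT4 and ZT20 arrays Hnf4a still ranged over 3.93 log2 units, from -1.71 at ZT12 to 2.22 at ZT16. The part of liver RNA in the ZT20 value was not tested.

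**Figure D3:**
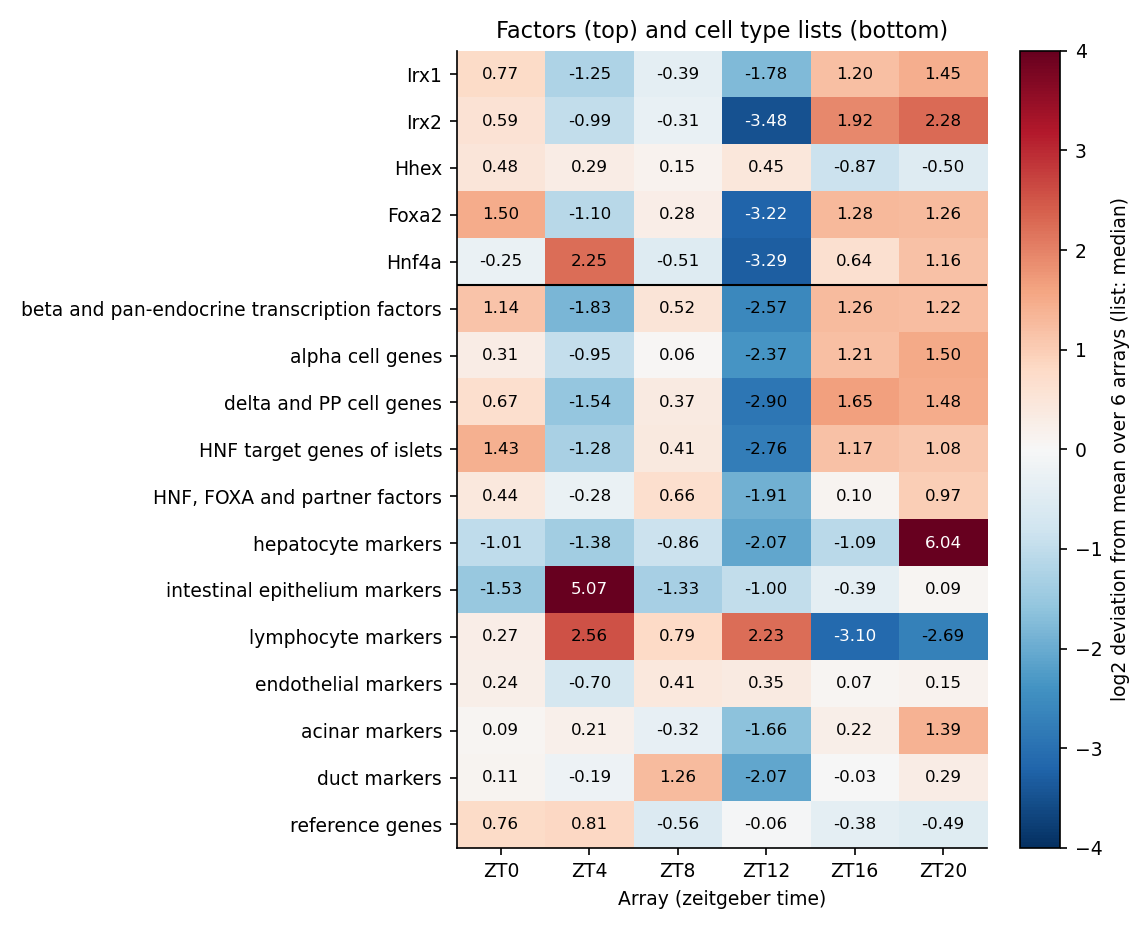
Log2 deviation from the mean over the 6 arrays for the 5 tested factors (upper rows) and the median deviation of 12 gene lists (lower rows), by array; red is higher and blue lower, and colours saturate at 4 while the printed values do not. Hnf4a is at 2.25 at ZT4, where the intestinal markers are at 5.07, and Irx2 and Foxa2 are lowest at ZT12 together with the alpha, delta and beta cell lists.

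Factors that work with the HNF and FOXA proteins were mixed. Of the 12 listed 9 were tested, 6 of these were lowest at ZT12, and 0 passed the 24 h test below. Their median deviation was 0.44 (ZT0), -0.28 (ZT4), 0.66 (ZT8), -1.91 (ZT12), 0.10 (ZT16) and 0.97 (ZT20). Onecut2, a cut homeodomain factor, was -3.00 at ZT12 and between -1.64 and 0.33 elsewhere, with its highest level at ZT16. Cebpa, a factor of liver and fat, was instead highest at ZT12 (-0.46) and lowest at ZT16 (-3.08). Onecut1 was well above background on 0 of 6 arrays.

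The 6 islet genes listed as HNF targets, such as Abcc8, a subunit of the beta cell potassium channel, and G6pc2, an islet glucose-6-phosphatase subunit, had medians of -1.28 at ZT4 and -2.76 at ZT12. G6pc2 was 4.07 at ZT4, 1.81 at ZT12 and 5.01 to 7.20 on the other arrays. The median of these genes was thus low at ZT4, where Hnf4a was highest, but 4 of the 6 were well above background there. Of the 6, 5 were lowest at ZT12 and 0 at ZT4. A link between their levels and Hnf4a was not tested. Beta and pan-endocrine factors, 12 of 14 tested, had medians of -1.83 at ZT4 and -2.57 at ZT12; Insm1 was 2.03 and 2.29 on these arrays and 4.05 to 5.18 on the others. Acinar and duct markers had medians of -1.66 and -2.07 at ZT12, and reference genes of -0.06. Lymphocyte markers had medians of 2.56 at ZT4 and 2.23 at ZT12, against 0.27 (ZT0), 0.79 (ZT8), -3.10 (ZT16) and -2.69 (ZT20). How far RNA of such cells bears on the low endocrine levels at ZT4 and ZT12 was not tested. Fewer endocrine cells in a pool and less RNA per cell cannot be told apart in these whole-islet measurements.

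The low level at ZT12 was also present within the 4 arrays of the shared scan. Between ZT12 and the highest of those arrays the distance was 3.23 log2 units for Irx1, 5.76 for Irx2, 4.50 for Foxa2 and 4.45 for Hnf4a. Within the same scan Hhex ranged over 1.32 log2 units, with ZT12 its highest array. Scan therefore does not separate ZT12 from ZT8, ZT16 and ZT20, but it cannot be told apart from time for ZT0 and ZT4.

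For each factor the 3 genes of most similar pattern were found by the root mean square difference of centred values over the 6 arrays, among named genes above background on all of them. For Irx1 they were Dpp10, Igsf21 and Gpr85, with differences of 0.19, 0.19 and 0.21 log2 units against a median of 1.36 over all 13863 genes. For Irx2 they were C8b (0.29), Gc (0.39) and Rab3b (0.39), against a median of 2.02; Gc was on the alpha cell list. For Foxa2 they were Ccdc92b (0.12), Car10 (0.13) and Wfdc16 (0.13), against 1.81. For Hnf4a they were Capn9 (0.37), a calpain of the digestive tract, Spon2 (0.47) and Degs2 (0.51), against 1.84. For Hhex they were Eef2 (0.10), a translation elongation factor, Gas2l3 (0.11) and Abhd17b (0.12), against 0.82. All genes share the same 6 arrays, and 278 genes were closer to Foxa2 than Irx2 was.

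The series asked which islet genes vary over the day. For this, limma was used to fit each gene a cosine with a 24 h period. None of the 5 factors tested passed. Amplitudes, as fitted peak minus trough, were 2.89 ± 0.97 log2 units (SE) for Irx1, 4.11 ± 1.51 for Irx2, 1.07 ± 0.75 for Hhex, 3.31 ± 1.46 for Foxa2 and 3.12 ± 1.57 for Hnf4a, against a median of 1.33 over all genes. The fitted peaks fell at ZT20.1, ZT20.6, ZT5.32, ZT21.6 and ZT24.0 in that order of genes. The limma p adjusted over all genes was 0.754 for Irx1, Irx2, Foxa2 and Hnf4a and 0.767 for Hhex. Unadjusted limma p values were 0.0575 for Irx1, 0.0798 for Irx2, 0.145 for Foxa2, 0.208 for Hnf4a and 0.413 for Hhex.

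In the fit above limma called 0 of 24147 genes (0%), and 968 (4.01%) had an unadjusted limma p under 0.05, as 0 of the 5 factors did. An exact permutation of the 6 array times, two-sided in effect since it uses the fit's R-squared, gave p = 0.25 for Irx1, 0.30 for Irx2, 0.35 for Hhex, 0.467 for Foxa2 and 0.45 for Hnf4a. That test cannot give a p below 0.0167. Without ZT8 the count under 0.05 was 4028 (16.7%), with Irx1 at an unadjusted limma p of 0.0109, Irx2 at 0.0171 and Foxa2 at 0.0151. Without ZT12 the count was 2455 (10.2%), with Irx1 at an unadjusted limma p of 0.0423 and Irx2 at 0.0101. Without ZT0 it was 781 (3.23%), with Hnf4a at 0.0377. It was 424 (1.76%) without ZT16, 348 (1.44%) without ZT20 and 440 (1.82%) with scan as a covariate. Irx1 was also at 0.0370 with quantile normalization (4.62% of genes under 0.05) and 0.0368 with the authors' values (4.69%). With normexp (3.95%) Irx1 was at 0.0451 and Irx2 at 0.0351. With only probes well above background on all arrays (4.04%) Irx1 was at 0.0480. Amplitudes depended on single arrays. Without ZT8 they were 6.38 for Irx2 and 5.57 for Foxa2, and without ZT12 they were 1.95 for Foxa2 and 0.81 for Hnf4a. Without ZT0 the amplitude of Hnf4a was 5.53 and without ZT16 that of Hhex was 0.62. No adjusted limma p of a factor fell below 0.241 in these fits.

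**Figure D4:**
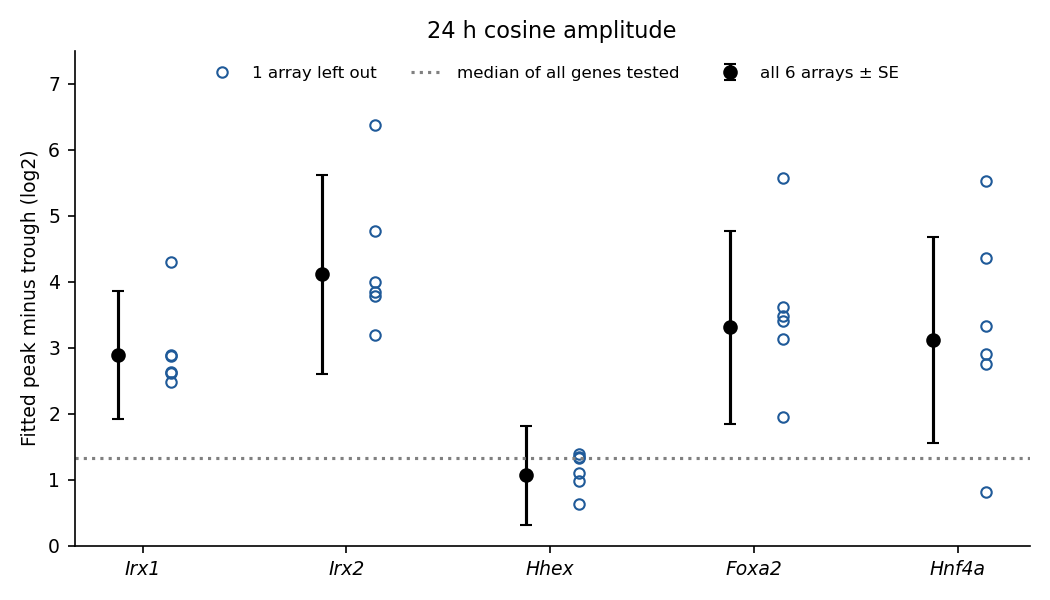
Amplitude of the fitted 24 h cosine (peak minus trough, log2 units) for the 5 factors tested. Black points with bars are the fits on all 6 arrays ± SE, open blue circles the fits with 1 array left out, and the dotted line the median over all genes tested (1.33); the circles of Hnf4a spread from 0.81 to 5.53.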

How the data were processed

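RNA of mouse islets was measured on 6 single-colour Agilent arrays, 1 per time point. The scanner values as deposited came from Feature Extraction 11.0.1.1 (Agilent), per the file headers, and are a linear intensity that is background-subtracted and detrended, without normalization between arrays, and other columns hold flags of 0 or 1. The authors' deposited value table held log2 values for 30170 probes whose columns shared a maximum of 18.4 and had medians of 8.62 to 8.63; they correlated with log2 processed signal at r of 0.999 to 1.00, uncentred, and how they were made is not given in the sources used here.

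Spots of a probe were averaged (39429 probes), scaled by each array's 75th percentile and named through RefSeq accessions (GRCm38.p6), used for names, neighbours and promoter windows; the arrays' own header names mm9, and no array coordinates were used. Of the probes, 27234 (69.1%) matched. Tested probes were well above background on at least 3 arrays and not outliers; the brightest probe stood for a gene. The 24 h cosine used limma 3.58.1 in R 4.3.3 with 3 residual degrees of freedom, the moderated F test and Benjamini-Hochberg adjustment at 0.05. Its code was run on simulated data to check that known amplitudes and phases were recovered. That simulation had a fixed noise level not taken from these data, so it does not measure power here. Root mean square differences and counts were computed in Python 3.11.15. Named were the 6 factors, their 3 nearest genes each, the brightest list genes and defining markers; others (Cdx2, Irx5, Onecut1, Foxa1, Pou3f4, Lepr, Cebpa, Fabp1, Apoa4) were chosen after their values were seen, and some genes the rule names are not reported here. The members and lists were chosen with earlier results of these data known. Alternatives were other scalings, normexp background correction on the median signal (in place of the mean signal, not used here), filters, scan as a covariate and leaving out arrays.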

Additional observations from a re-analysis of the deposited data

How the results depend on the processing

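The count of genes with a 24 h rhythm was 0 in every fit run, and no factor passed in any of them. Adjusted limma p values of the factors stayed at or above 0.241. Over all genes the smallest adjusted limma p was 0.151, in the fit without ZT12. With scan as a covariate 1 residual degree of freedom was left. Pax4 was tested only without the filter on dim probes, with an amplitude of 1.58 ± 1.14 (SE) and an adjusted limma p of 0.814, and no value was computed for it from the authors' values. The distance between highest and lowest array moved by over 1.5-fold in these cases. With normexp background correction it was 4.13 log2 units for Irx2 and 1.66 for Pax4, whose highest array became ZT4 in place of ZT8. The other Irx2 probe gave 2.41, mostly below background. For Hnf4a quantile normalization gave 4.83, as did the authors' values (4.83). With single arrays left out it was 3.27 to 5.76 for Irx2, 1.72 to 3.34 for Pax4, 2.60 to 4.72 for Foxa2 and 2.75 to 5.54 for Hnf4a, as fewer arrays can only narrow a range. Without ZT4 and ZT12 together, chosen after seeing the data like the other probe of Foxa2 in the comparison with endocrine factors, it was 1.84 for Irx1, 2.59 for Irx2, 1.22 for Foxa2 and 1.67 for Hnf4a, and without ZT4 and ZT20 it was 3.93 for Hnf4a. Taking the 75th percentile over probes detected on all arrays shifted the median of all genes to between -0.27 (ZT4) and 0.21 (ZT20). Quantile normalization made ZT20 the highest array of Foxa2 in place of ZT0 and turned the acinar median at ZT8 to 0.29, against -0.32 with the 75th percentile; it also gave 0.75 against 1.43 for the HNF targets at ZT0 and 0.01 against 0.81 for reference genes at ZT4. No paired analysis was possible because each time point had 1 array. P-values rest on 6 pools and cover differences between pools, hybridisations and scans together with time of day.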

Other observations

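Other factors of the same families, named here after their values were seen, were placed differently. Foxa1, the close relative of Foxa2, was -1.25 at ZT0, -0.45 at ZT4, -2.91 at ZT8, -4.83 at ZT16 and -3.44 at ZT20, and was not well above background at ZT12. It was thus highest at ZT4, as was Hnf4a, while Foxa2 was low there. Its fitted amplitude was 5.40 ± 0.84 log2 units (SE) with an unadjusted limma p of 0.00111 and an adjusted limma p of 0.754, so it did not pass. Pou3f4, an alpha cell factor, was -2.13 at ZT8, -4.13 at ZT4 and -6.39 at ZT0, and not well above background at ZT12, ZT16 and ZT20. Its highest array was ZT8, on which Pax4 was measured as well. The amplitude of Pou3f4 was 5.05 ± 1.35 with an unadjusted limma p of 0.0213 and an adjusted limma p of 0.754.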
